A study of Homo sapiens with 8 samples.

Results

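Etoposide was compared with no treatment in all 8 libraries of the series, 4 etoposide against 4 untreated, with the cell line as a covariate, so that the fit gave the response common to both lines. H1299 is a p53-null non-small cell lung carcinoma line derived from a lymph node. The H1299/EV cells carried an empty vector and came from another laboratory, and the H1299/R273H cells stably expressed the p53 mutant R273H from a CMV promoter plasmid and were grown from G418-resistant colonies, whose number is not given in the sources used here. Each line was left untreated or was given etoposide for 24 h before harvest, with 2 libraries in each of the 4 groups. Etoposide traps topoisomerase II on broken DNA and so causes DNA double-strand breaks. The labels give its dose once as 10 µM and once as 10 mM, and the data cannot settle which.

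A microRNA (miRNA) is cut from a hairpin precursor, first by Drosha and then by Dicer. One arm of the hairpin is usually kept as the guide strand in Argonaute and the other, the passenger strand, is mostly lost, and the suffixes 5p and 3p name the arms. The seed, bases 2 to 8 of the mature miRNA, directs it to its target messages, so miRNAs with one seed form a family. Wild-type p53 is known to induce the miR-34 genes after DNA damage, and H1299 cells have no wild-type p53.

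The libraries held 234545 to 579367 reads on the deposited features, and 427 to 579 miRNAs were detected in each. Of 945 miRNA and 274 tRNA features, 325 miRNAs and 115 tRNA features had a mean of at least 3 normalized reads (reads brought to a common depth with edgeR's TMM factors) and were tested. Libraries EV etoposide 1 and R273H etoposide 2 stood apart from the rest, with TMM factors of 1.507 and 1.501 against 0.784 to 0.989 in the others. Both also had the lowest share of miRNA reads on miR-21-5p, 33.5% and 30.6% against 37.4% to 44.5% in the other 6 libraries. Summed over their lists, markers of epithelial, blood, liver, muscle and stromal cells reached at most 29.8 normalized reads in any library. The endothelial marker miR-126 summed to between 528 and 1065 normalized reads and the neuronal list, through miR-128-3p, to between 234 and 926, and none of the 7 marker miRNAs that were tested passed the test for etoposide.

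Mature sequences of the miRNAs the results turn on are given here with the seed in capitals (RefSeq, GRCh38.p14). The first lines show the miR-34 and miR-449 members, of which miR-34a-5p, miR-449a and miR-449b-5p have one seed and miR-34b-5p has it moved by 1 base.
hsa-miR-34a-5p: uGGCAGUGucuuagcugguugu
hsa-miR-449a: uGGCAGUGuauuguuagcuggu
hsa-miR-449b-5p: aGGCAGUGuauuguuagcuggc
hsa-miR-34b-5p: uAGGCAGUgucauuagcugauug
hsa-miR-338-3p: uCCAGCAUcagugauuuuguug
The next set shows the miR-29 family, whose members share a seed and differ outside it.
hsa-miR-29b-3p: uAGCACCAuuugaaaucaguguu
hsa-miR-29a-3p: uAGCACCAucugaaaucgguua
hsa-miR-29c-3p: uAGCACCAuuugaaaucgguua
The last set pairs each passenger strand that fell with the guide strand of the same hairpin, from which it differs in seed.
hsa-miR-16-2-3p: cCAAUAUUacugugcugcuuua
hsa-miR-16-5p: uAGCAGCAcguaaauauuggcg
hsa-let-7a-2-3p: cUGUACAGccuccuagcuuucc
hsa-let-7a-5p: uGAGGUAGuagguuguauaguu

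Across both lines 6 miRNAs changed with etoposide. The p53-linked miR-34a-5p and the intronic miR-338-3p rose, by 2.35 and 4.004 times, and miR-29b-3p, miR-30b-5p and the passenger strands miR-16-2-3p and let-7a-2-3p fell to between 0.273 and 0.486 of the untreated level. These were 6 of 325 tested miRNAs (1.85%) at an adjusted p under 0.05 in edgeR's quasi-likelihood test, 2 of them higher (0.615%) and 4 lower (1.23%). With library totals alone as the scaling the split was 4 higher and 1 lower, and the median log2 change of all miRNAs lay 0.49 higher than under TMM. At an unadjusted p under 0.05 there were 36 miRNAs (11.1%), 23 higher (7.08%) and 13 lower (4%). The median log2 change over all tested miRNAs was 0.10. In each of the 6 the treated and untreated libraries did not overlap in either line, which held for 24 tested miRNAs in the higher direction (7.38%) and 11 in the lower direction (3.38%).

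**Figure D1:**
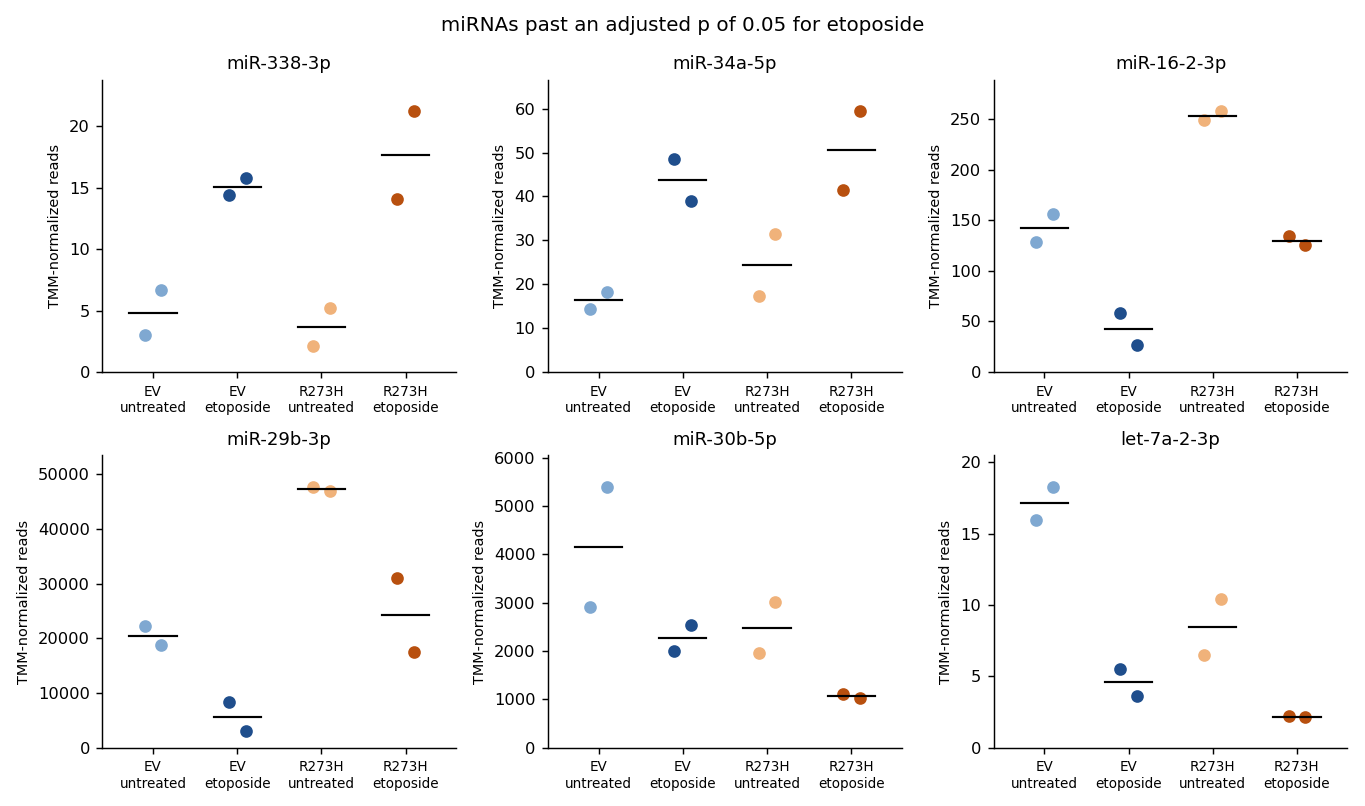
TMM-normalized reads (y axis, from 0) of the 6 miRNAs past an adjusted p of 0.05, in each of the 8 libraries. Points are libraries, bars the mean of the 2 libraries of a group, and in every panel both etoposide libraries of a line lie on the same side of both of its untreated libraries.

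miR-34a-5p, which represses cell cycle genes and is the best known miRNA target of p53, comes from MIR34A at chr1:9211727-9211836 on the minus strand (GRCh37), in an exon of the long noncoding host gene MIR34AHG. Its normalized reads were 14.4 and 18.3 in untreated and 48.6 and 38.9 in etoposide-treated EV libraries, and 17.2 and 31.4 in untreated and 41.5 and 59.5 in treated R273H libraries. All 4 treated libraries lay above all 4 untreated ones. The log2 change was 1.23 (SE 0.32, adjusted p = 0.0389, edgeR), from 11 to 84 reads a library. The call rested on few reads and was kept in 2 of 8 fits that left out 1 library, those without EV etoposide 2 and R273H untreated 2. It was lost without EV untreated 1 (adjusted p = 0.0924), EV untreated 2 (0.0923), EV etoposide 1 (0.14), R273H untreated 1 (0.0847), R273H etoposide 1 (0.0501) or R273H etoposide 2 (0.115), with a log2 change of 1.08 to 1.49 in all 8, and also with relative log expression scaling (adjusted p = 0.0536), upper quartile scaling (0.071) and limma at pseudocounts of 1 (0.0581) and 0.5 (0.071).

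miR-449a has the seed of miR-34a-5p and lies at chr5:54466360-54466450 on the minus strand, in an intron of CDC20B. It was read 2 and 1 times in untreated and 12 and 7 times in treated EV libraries, and 2 and 6 times in untreated and 15 and 14 times in treated R273H libraries. The treated libraries again lay above the untreated ones in both lines, with a log2 change of 1.84 (SE 0.55), which did not pass (adjusted p = 0.111, edgeR). miR-34c-5p, from the second miR-34 locus, had normalized reads of 28.9 and 31.6 against 57.5 and 36.4 in EV and of 115 and 89.9 against 119 and 169 in R273H, a log2 difference of 0.56 (SE 0.26, adjusted p = 0.463). For both arms of miR-34b, the neighbour of miR-34c, treated and untreated libraries overlapped in EV and did not in R273H cells. In the latter miR-34b-3p had 18.3 and 6.3 normalized reads untreated and 31.1 and 36.1 treated, while in EV it had 5.3 and 11.6 untreated and 8.8 and 9.7 treated. The joint log2 difference was 1.00 (SE 0.42, adjusted p = 0.399) for miR-34b-3p and 0.28 (SE 0.26, adjusted p = 0.718) for miR-34b-5p. miR-449b-5p had at most 2 reads in any library but the treated R273H ones, which had 9 and 13. miR-449c-5p, which did not pass, was read 3 and 1 times in untreated and 0 and 3 times in treated EV libraries. In R273H cells it was read 3 and 0 times untreated and 4 and 15 times treated, and its normalized reads overlapped in both lines.

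Summed over miR-34a-5p, miR-34c-5p, miR-449a and miR-449b-5p, normalized reads were 44.8 and 53.2 in untreated and 120 and 85.0 in treated EV libraries, and 137 and 129 in untreated and 178 and 248 in treated R273H libraries. The log2 ratio of the group means was 1.07 in EV and 0.68 in R273H, and the libraries did not overlap in either line. miR-34c-5p made up most of this sum in R273H cells.

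**Figure D2:**
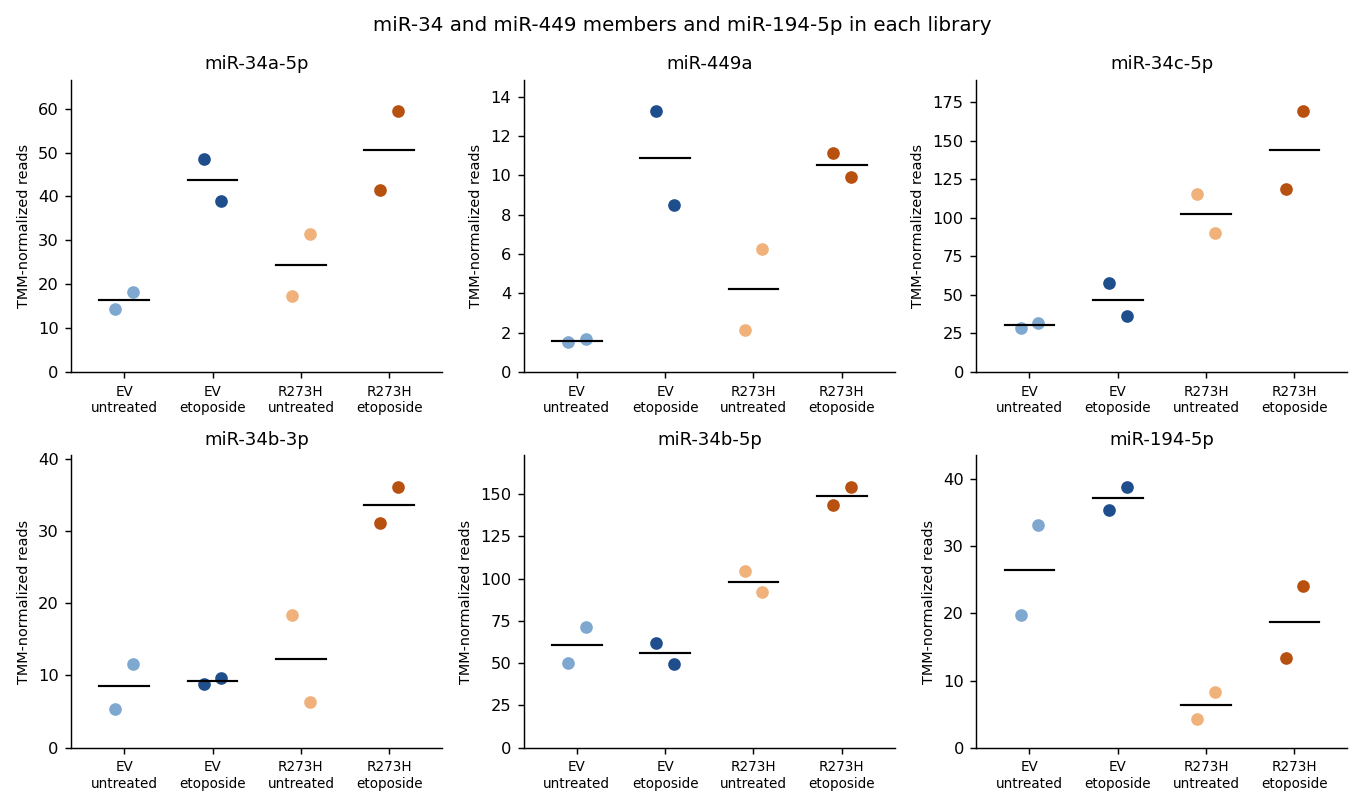
TMM-normalized reads (y axis, from 0) of miR-34 and miR-449 members and of miR-194-5p in the 8 libraries, with bars at the mean of 2 libraries. miR-34a-5p, miR-449a, miR-34c-5p and miR-194-5p lie higher in treated than in untreated libraries of both lines, while miR-34b-5p overlaps in EV.

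The p53-linked list, miRNAs whose genes or processing p53 is known to promote, had 13 measured features, of which 7 were tested. All 7 had a log2 difference above 0, against 193 of 325 tested miRNAs (59.4%), with a median of 0.56 against 0.10. Of the 7, miR-34a-5p alone passed the adjusted test, and 4 had an unadjusted p under 0.05, against 6 (1.85%) and 36 (11.1%) of 325 tested miRNAs. The other 3 of these 4 were miR-34b-3p, miR-34c-5p and miR-194-5p, whose log2 difference was 0.94 (SE 0.37, adjusted p = 0.348). miR-194-5p was read 26 and 20 against 32 and 32 times in EV and 4 and 8 against 18 and 34 times in R273H cells. miR-192-5p (0.46), miR-34b-5p (0.28) and miR-107 (0.19) had the smallest log2 differences of the list. All 7 stayed above 0 under the relative log expression, upper quartile and library total scalings. With library totals alone the median of all tested miRNAs was itself 0.58, so signs above 0 there say little on the list, whose median was 1.10. The count of 4 at an unadjusted p under 0.05 depended on the scaling. In edgeR it was 3 with relative log expression, 2 with upper quartile scaling and 5 with library totals alone, and DESeq2 gave 2. Without EV etoposide 1 and R273H etoposide 2, a comparison chosen after the data were seen, the 7 also stayed above 0 but their median was 0.19. There 1 of the 7 had an unadjusted p under 0.05 in edgeR, and miR-34a-5p had a log2 difference of 0.93 (adjusted p = 0.445, edgeR).

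miR-338-3p had the largest rise. It lies at chr17:79099687-79099708 on the minus strand, in an intron of AATK, a kinase gene expressed in the nervous system, and miR-338 is known for its role in oligodendrocyte differentiation. It was read 4 and 4 times in untreated and 13 and 13 times in treated EV libraries, and 2 and 5 times in untreated and 19 and 30 times in treated R273H libraries. In normalized reads this was 3.0 and 6.6 against 14.4 and 15.8, and 2.2 and 5.2 against 14.1 and 21.2. Every treated library was above every untreated one. The log2 change was 2.001 (SE 0.47, adjusted p = 0.0336, edgeR), at a level where 1 library can decide the call. It was lost without EV untreated 1 (adjusted p = 0.0842), R273H untreated 1 (0.0616) or R273H etoposide 2 (0.112) and kept in the other 5 of 8 fits. It was also lost with limma at pseudocounts of 1 (adjusted p = 0.0534) and 0.5 (0.071) and without EV etoposide 1 and R273H etoposide 2 together (0.188). The other arm, miR-338-5p, had at most 1 read in a library.

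miR-29b-3p, which represses collagen genes and the DNA methyltransferases DNMT3A and DNMT3B, was the only one of the 10 most abundant miRNAs that changed. Its mature sequence has 2 exact matches in GRCh37, at chr1:207975795-207975817 in an exon of the noncoding MIR29B2CHG and at chr7:130562226-130562248 in an exon of the noncoding LINC-PINT, both on the minus strand. EV libraries held 29227 and 11286 reads untreated and 7623 and 2452 treated, and R273H libraries 44293 and 44915 untreated and 41816 and 24647 treated. Normalized, these were 22194 and 18752 against 8424 and 2977, and 47716 and 46936 against 30989 and 17449. Treated libraries were lower in both lines, although every R273H library was above every treated EV library. The log2 change was -1.41 (SE 0.34, adjusted p = 0.0336, edgeR). This call was lost without EV untreated 1 (adjusted p = 0.0842), EV untreated 2 (0.125) or R273H untreated 2 (0.0556), with log2 changes of -1.28, -1.38 and -1.51, and it was kept in the other 5 of 8 fits. It was also lost with upper quartile scaling (adjusted p = 0.0652) and with limma at pseudocounts of 1 (0.0534) and 0.5 (0.071).

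The other miR-29 members did not pass the test. miR-29a-3p, from the same cluster as one miR-29b copy, had 5839 and 6945 normalized reads in untreated and 3193 and 6804 in treated EV libraries, and 6025 and 7464 against 6049 and 4331 in R273H libraries. These overlapped, and the log2 difference was -0.37 (SE 0.28, adjusted p = 0.65). miR-29c-3p had 53.9 and 36.6 against 34.3 and 24.3 in EV and 103 and 101 against 85.2 and 82.8 in R273H, with no overlap and a log2 difference of -0.44 (SE 0.26, adjusted p = 0.553). With both arms of the family's hairpins counted, all 5 tested features were below 0, against 132 of 325 tested miRNAs, with a median of -0.44. These 5 include the 5p arms miR-29a-5p (-0.74) and miR-29b-1-5p (-0.41), which are not the strands that share the seed. miR-29b-1-5p moved in opposite directions, with 0.79 in EV and -1.18 in R273H. With library totals alone 2 of the 5 were above 0, and their median was -0.01 where that of all miRNAs was 0.58. The sum of the 3 guide strands, most of it miR-29b-3p in every library but EV etoposide 2, went from 28087 and 25734 to 11651 and 9806 normalized reads in EV and from 53844 and 54502 to 37124 and 21862 in R273H, log2 ratios of -1.33 and -0.88.

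miR-30b-5p, a member of the miR-30 family that is known to repress SNAI1 in epithelial cells, had normalized reads of 2918 and 5397 in untreated and 2001 and 2548 in treated EV libraries. In R273H libraries it had 1950 and 3005 untreated and 1103 and 1034 treated. It fell by 1.04 on the log2 scale (SE 0.27, adjusted p = 0.0389, edgeR). The gap between the groups was smallest in EV, where the lower untreated and the higher treated library were 2918 and 2548. Its call was lost without EV untreated 2 (adjusted p = 0.274), R273H untreated 2 (0.185), R273H etoposide 1 (0.0501), R273H etoposide 2 (0.0998) or the last together with EV etoposide 1 (0.0903). It was also lost with upper quartile scaling (adjusted p = 0.0652), library totals alone (0.13) and limma at pseudocounts of 1 (0.0663) and 0.5 (0.0862). With the replicate number as a block it was lost as well (adjusted p = 0.0694, edgeR). The other 7 tested features of the family did not pass, 4 of the 8 were below 0, against 132 of 325 tested miRNAs, and their median was -0.05. The most abundant of them, miR-30c-5p, had 11014 and 21273 against 8719 and 16634 normalized reads in EV and 21317 and 22500 against 13311 and 10306 in R273H cells, so that the groups overlapped in EV.

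miR-16-2-3p, the passenger strand of MIR16-2, had the smallest p of all tested features. MIR16-2 lies at chr3:160122533-160122613 on the plus strand, beside MIR15B in an intron of the condensin gene SMC4. Its reads were 170 and 94 in untreated and 53 and 22 in treated EV libraries, and 231 and 247 in untreated and 181 and 178 in treated R273H libraries. Normalized, these were 129 and 156 against 58.6 and 26.7, and 249 and 258 against 134 and 126. The groups were well apart in both lines, and the log2 change was -1.31 (SE 0.27, adjusted p = 0.00914, edgeR). It was the only one of the 6 calls kept in all 8 fits that left out 1 library, with adjusted p from 0.000473 to 0.033. The call was lost with library totals alone (log2 -0.80, adjusted p = 0.207, edgeR) and with limma at a pseudocount of 0.5 (adjusted p = 0.0548).

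The guide strand miR-16-5p, which represses cyclins and BCL2 and is made from 2 loci, did not pass the test. It had 2835 and 2487 against 3735 and 3806 normalized reads in EV and 6376 and 6968 against 7420 and 5901 in R273H cells. Its log2 difference was 0.25 (SE 0.26, adjusted p = 0.754), which turned into a call in the higher direction only with library totals alone. Both arms of the neighbouring miR-15b had log2 differences near 0, -0.03 for miR-15b-5p and -0.02 for miR-15b-3p. miR-16-1-3p, the passenger strand of the other miR-16 locus, had a log2 difference of -0.15 (SE 0.70).

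let-7a-2-3p, the passenger strand of MIRLET7A2 (chr11:122017229-122017301, minus strand, in an intron of the noncoding MIR100HG), was read 21 and 11 times in untreated and 5 and 3 times in treated EV libraries. In R273H libraries it was read 6 and 10 times untreated and 3 and 3 times treated. The log2 change was -1.87 (SE 0.50, adjusted p = 0.0479, edgeR). Treated libraries were lower in both lines, where it had 3 to 5 reads a library. The call was kept in 1 of 8 fits, that without R273H untreated 1. It was lost without EV untreated 1 (adjusted p = 0.0842), EV untreated 2 (0.151), EV etoposide 1 (0.067), EV etoposide 2 (0.0897), R273H untreated 2 (0.116), R273H etoposide 1 (0.149), R273H etoposide 2 (0.115) or the last together with EV etoposide 1 (0.168). It was also lost with library totals alone (adjusted p = 0.205) and with limma at pseudocounts of 1 (0.0581) and 0.5 (0.071). With the replicate number as a block it was lost as well (adjusted p = 0.1, edgeR). Its guide strand let-7a-5p, a repressor of RAS and HMGA2 shared by 3 loci, had 7340 and 8816 against 5598 and 11995 normalized reads in EV and 8658 and 6713 against 7132 and 4884 in R273H cells, with a log2 difference of -0.12 (SE 0.29, adjusted p = 0.947). Across the let-7 family that 1 passenger strand was the only call among 12 tested features, against 6 of 325 tested miRNAs called (1.85%), and the median was 0.05.

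**Figure D3:**
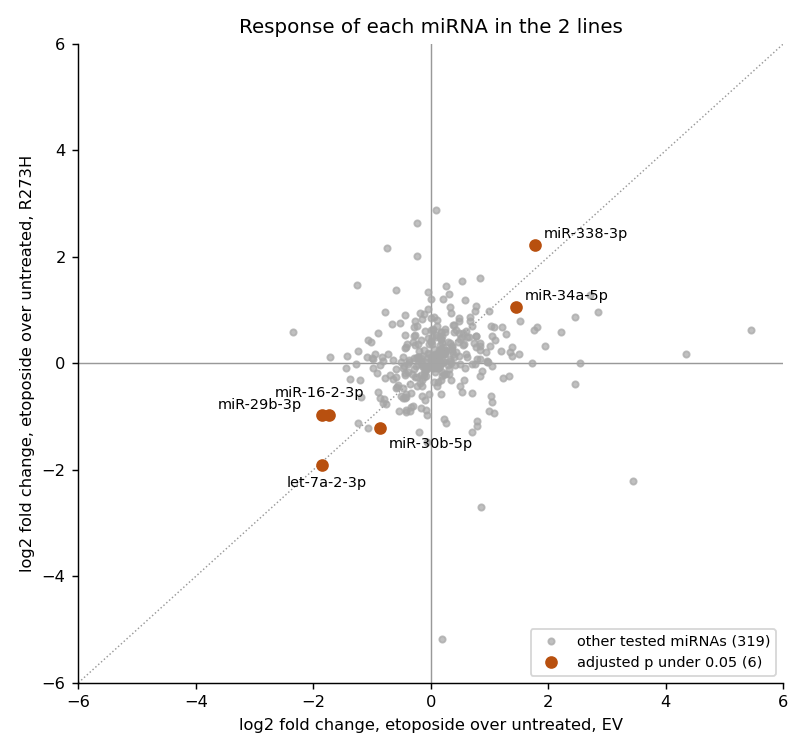
Log2 fold change of etoposide over untreated in EV (x axis) and in R273H (y axis) for the 325 tested miRNAs, from 1 fit of the 4 groups. The 6 called miRNAs (orange) lie on the same side of 0 in both lines, and of all 325 points 208 have the same sign in both.

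The responses of the 2 lines were set side by side. Of 325 tested miRNAs, 208 (64%) had the same sign in both lines, and across miRNAs the log2 changes had a Pearson r of 0.15, a description over features that share 8 libraries. miR-16-2-3p had log2 changes of -1.73 in EV and -0.96 in R273H. miR-29b-3p had -1.84 and -0.97, miR-30b-5p -0.87 and -1.21, let-7a-2-3p -1.85 and -1.91, miR-34a-5p 1.45 and 1.05, and miR-338-3p 1.77 and 2.22. Within a single line, miR-16-2-3p in EV was the only miRNA past an adjusted p of 0.05 (adjusted p = 0.00893, edgeR, 1 of 325 or 0.308%), with 32 (9.85%) at an unadjusted p under 0.05, while in R273H cells no miRNA passed and 19 (5.85%) had an unadjusted p under 0.05. Fitted on the libraries of one line alone, no miRNA passed in either line (miR-16-2-3p in EV, adjusted p = 0.0582), and 18 in EV and 35 in R273H had an unadjusted p under 0.05. DESeq2 was not run on single-line contrasts. No miRNA passed the test of the difference between the lines in edgeR (0 of 325, with 11 (3.38%) at an unadjusted p under 0.05), and DESeq2 gave 0 and 5. After miR-451a and miR-129-1-3p, the features of smallest p for that difference were chr13.trna5-GluTTC (-1.98, SE 0.69), miR-205-5p (-5.36, SE 1.998) and miR-129-2-3p (2.95, SE 1.15), R273H minus EV on the log2 scale. Among the 6, the difference R273H minus EV ran from -0.40 (SE 0.66) for miR-34a-5p to 0.88 (SE 0.71) for miR-29b-3p on the log2 scale. With these errors a difference of about 1 log2 unit could not be told from 0, and equal responses are not shown.

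The miRNAs nearest to the threshold did not pass and are given as values. On the higher side these were miR-503-5p, miR-449a, miR-9-5p, miR-194-5p, miR-1301-3p, miR-27b-3p, miR-877-5p, miR-34b-3p, miR-152-3p and miR-212-3p, with log2 differences from 0.64 (miR-27b-3p) to 1.84 (miR-449a). miR-503-5p, which lies at chrX:133680358-133680428 on the minus strand and represses cyclin D1 and CDC25A, had 92.6 and 63.1 against 145 and 175 normalized reads in EV and 59.2 and 104 against 129 and 138 in R273H cells. Its libraries did not overlap in either line, with a log2 difference of 0.86 (SE 0.26, adjusted p = 0.111, edgeR). miR-9-5p, abundant in neural cells, had 176 and 201 against 219 and 381 in EV and 54.9 and 79.4 against 102 and 131 in R273H cells, a log2 difference of 0.73 (SE 0.25, adjusted p = 0.242).

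On the lower side stood miR-7-1-3p, miR-3662, miR-18a-5p, miR-100-5p, miR-7-5p, miR-296-5p, miR-19b-1-5p and miR-22-3p, with log2 differences from -0.53 to -0.88. miR-7-1-3p, again an arm that comes from a single hairpin copy, had 66.8 and 101 against 34.3 and 38.9 in EV and 166 and 95.1 against 82.3 and 87.1 in R273H cells, a log2 difference of -0.88 (SE 0.27, adjusted p = 0.114, edgeR). DESeq2 called it, with miR-3662 and miR-18a-5p, beside miR-16-2-3p, miR-29b-3p and miR-30b-5p, all 6 lower and none higher. DESeq2 gave no adjusted p for miR-34a-5p, miR-338-3p and let-7a-2-3p, and their log2 changes there were 1.13, 1.91 and -2.02.

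The lists were described by their counts, and each took all arms of its miRNA names. The list of precursors that bind KSRP, an RNA-binding protein that promotes their maturation, had 26 tested features with 2 calls, both lower and both passenger strands (miR-16-2-3p and let-7a-2-3p), 13 features above 0 and a median of -0.00, beside 4 of 325 tested miRNAs called lower (1.23%) and 193 of 325 above 0 (59.4%). Its highest member was miR-98-5p, at 0.74 (SE 0.43). The list of miRNAs that target DNA damage response genes had 27 tested features, 2 calls in the lower direction (miR-16-2-3p and miR-29b-3p), 10 features above 0 and a median of -0.15, against the same 1.23% and 59.4% over all tested miRNAs. Its highest member was the hypoxia-linked miR-210-3p, at 0.55 (SE 0.39). Of its 2 calls, miR-16-2-3p is a passenger strand whose seed is not that of the guide strand miR-16-5p, which had 0.25. With library totals alone 18 of these 27 were above 0. miR-18a-5p, which targets ATM, was the next of this list, with 2330 and 2454 against 1338 and 1496 normalized reads in EV and 11715 and 5156 against 5295 and 4677 in R273H cells. Its log2 difference was -0.76 (SE 0.27, adjusted p = 0.289, edgeR), and the R273H libraries overlapped.

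For the counts of the lists below, the shares over all 325 tested miRNAs were 36 at an unadjusted p under 0.05 (11.1%) and 6 called (1.85%). The miR-17-92 and paralog clusters, proliferation-linked MYC targets, had 18 tested features, 6 above 0, no call, 2 at an unadjusted p under 0.05 and a median of -0.14, and DESeq2 called miR-18a-5p among them. The stress and NF-kB list had 12 tested features with no call, 1 at an unadjusted p under 0.05 (miR-212-3p, 0.93) and a median of -0.02. The miR-15/16 family had 11 tested features, with miR-16-2-3p its 1 call, and its extremes were that strand and miR-503-5p. No member passed in the miR-23/27/24 clusters (8 tested, median -0.07), the miR-181 family (8, median 0.17) or the miR-99/100 and miR-125 group (9, median -0.03) in edgeR, where 2, 0 and 1 features had an unadjusted p under 0.05, nor in DESeq2. The highest members of the other lists, none of them past the test, were miR-20b-5p (0.52) in the miR-17-92 group, miR-30e-3p (0.60) in the miR-30 family, miR-181d-5p (0.74) in the miR-181 family and miR-125a-3p (0.79) in the miR-99/100 and miR-125 group, and miR-27a-5p (-0.53) was the lowest of the miR-23/27/24 clusters. The medians of these lists, apart from the p53-linked and miR-29 ones, lay within 0.3 of the 0.10 over all tested miRNAs.

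The 10 miRNAs with the highest mean all had a log2 difference below 0, against 132 of 325 tested miRNAs. Only miR-29b-3p passed, against 6 of 325 (1.85%). Among the 10, the lowest after it were miR-100-5p at -0.66 (SE 0.29, adjusted p = 0.444, edgeR) and miR-30c-5p at -0.62 (SE 0.31). Next came miR-19b-3p at -0.56 (SE 0.28), miR-21-5p at -0.55 (SE 0.37), miR-31-5p at -0.50 (SE 0.30) and miR-23a-3p at -0.47 (SE 0.29). The differences of miR-24-3p, miR-27a-3p and miR-103a-3p turned above 0 with library totals alone. The oncogenic miR-21-5p, the most abundant, took 41.3% and 41.3% of miRNA reads in untreated and 33.5% and 44.5% in treated EV libraries, and 43.8% and 38.2% in untreated and 37.4% and 30.6% in treated R273H libraries. These overlapped in EV, and the mean difference of -4.68 percentage points had p = 0.278 in an exact two-sided permutation test within lines, which with 36 arrangements cannot give less than 0.0556. As relative levels, these values cannot tell more of one RNA from less of all others.

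Reads on tRNA took a larger share of the treated libraries. They were 6.92% and 3.75% of all reads in untreated and 8.61% and 8.77% in treated EV libraries, and 1.72% and 2.67% in untreated and 4.34% and 4.53% in treated R273H libraries. Both treated libraries of each line were above both untreated ones, by 2.79 percentage points on average. The exact permutation test within lines gave p = 0.0556, the smallest that 36 arrangements allow (0.0926 after Benjamini-Hochberg adjustment over 5 shares), so the difference could not pass 0.05. The share of miRNA reads moved the other way, by -2.94 points (exact p = 0.0556).

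No single tRNA feature passed in edgeR (0 of 115), with 10 (8.7%) at an unadjusted p under 0.05, and no anticodon sum did (0 of 46, with 3 or 6.52%, ProCGG, IleTAT and SeC(e)TCA, at an unadjusted p under 0.05). DESeq2 also called 0 tRNA features. Copies of a tRNA are nearly identical, so the split of reads between copies is uncertain. Aspartate tRNA led the tRNA reads. The feature chr12.trna10-AspGTC alone took 30.1% to 51.5% of tRNA reads, with 12036 and 4878 against 9950 and 21884 normalized reads in EV and 2658 and 4420 against 8133 and 4520 in R273H cells. Untreated and treated libraries overlapped in EV, and the log2 difference was 0.87 (SE 0.32, adjusted p = 0.289, edgeR). It passed with library totals alone (log2 1.21, adjusted p = 1.48e-09) and without EV etoposide 1 and R273H etoposide 2 (1.205, adjusted p = 0.0183), as did chr13.trna5-GluTTC (1.57, adjusted p = 0.0493, and 1.90, adjusted p = 0.0252), whose log2 difference was 1.28 (SE 0.43, adjusted p = 0.195) with TMM over all libraries. chr13.trna5-GluTTC also passed without EV etoposide 1 (adjusted p = 0.0339, edgeR), R273H untreated 1 (0.0191) or R273H etoposide 2 (0.0258), and its log2 difference was 0.39 (adjusted p = 0.613) without EV etoposide 2. Summed over its 8 features, AspGTC had a log2 difference of 0.83 (SE 0.47, adjusted p = 0.653), and all 4 tested Asp features were above 0, against 68 of 115 tRNA features (59.1%). At the other end, 2 of 10 tested alanine features and 1 of 5 isoleucine features were above 0, with medians of -0.31 and -0.71.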

How the data were processed

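Small RNA was sequenced in 8 libraries, 4 from each H1299 line and 4 after etoposide. The authors trimmed and length-filtered the reads, aligned them to miRBase with SHRiMP and to hg19 with Novoalign, counted them per miRNA, tRNA, rRNA and adapter feature, and deposited normalized counts (signal: counts divided by DESeq size factors), with a separate table for each pair of groups. The deposited tables of fold changes and p-values were not used. Each column was divided by the value of 1 read, which gave whole reads for 100% of values within 0.01. Features listed for one line only were set to 0 in the other. Because 2 tables scaled apart cannot be compared, the count test on these reads was the main test.

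Features with a mean of at least 3 TMM-normalized reads were tested with edgeR 4.0.16 (quasi-likelihood, R 4.3.3), with line and treatment as terms and Benjamini-Hochberg adjustment over 440 miRNA and tRNA features. The line by treatment term tested the difference between lines. Shares were tested by exact permutation within lines. Alternatives used limma 3.58.1, DESeq2 1.42.0, other scalings and filters, and omitted libraries. The script for the tests was checked on simulated data. Replicate libraries differed by more than sampling noise (chi-square per degree of freedom 32.3 to 70.4). The study describes them as biological replicates, and p-values measure the spread between these libraries, counting error included. Same-numbered libraries did not deviate together (r = 0.01 in EV and 0.02 in R273H), so numbers were not taken as pairs.

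Members and lists were chosen with earlier results of these data known. The rule for named features took every called feature, the 12 miRNAs of smallest p in each direction, the 10 most abundant, the 5 of smallest interaction p and the extremes of each list. The sequence-based guide and passenger comparisons were added after the values were seen. One mature RefSeq sequence matched 825 of 945 miRNA features. miRNA positions are from GENCODE on GRCh37 with an exact match of the mature sequence.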

Additional observations from a re-analysis of the deposited data

Results flagged for a closer look

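Among tested features, 12 of 325 miRNAs (3.69%) and 4 of 115 tRNA features (3.48%) had differences of opposite direction in the 2 lines, with no overlap between treated and untreated libraries in either, and none passed the test of the difference between lines in edgeR (6 of the 12 miRNAs had an unadjusted p under 0.05). miR-451a was read 8 and 3 against 12 and 6 times in EV and 5 and 14 against 3 and 1 times in R273H cells, and its log2 response differed between lines by -3.55 (R273H minus EV, SE 1.14, unadjusted p = 0.00239 and adjusted p = 0.702, edgeR). miR-129-1-3p was read 2 and 0 against 5 and 16 times in EV and 3 and 1 against 1 and 0 times in R273H cells, with a difference of -5.66 (SE 1.93, adjusted p = 0.702, edgeR), a fitted value that depends on how counts of 0 are treated. miR-222-5p had 44.04 and 31.6 against 44.2 and 46.1 normalized reads in EV and 38.8 and 27.2 against 14.1 and 17.7 in R273H cells, with a difference of -1.28 (SE 0.65, adjusted p = 1.00, edgeR). The log2 response was lower in R273H than in EV for miR-29b-1-5p (-1.97), miR-20a-3p (-1.63), miR-139-5p (-2.86), miR-101-5p (-1.998), miR-532-3p (-1.88), chr6.trna40-ValTAC (-2.36), chr6.trna83-LeuTAA (-2.94) and chr1.trna88-GluTTC (-0.87). It was higher in R273H for miR-25-5p (1.97), miR-92b-3p (0.96), miR-99a-5p (1.199), miR-93-3p (0.79) and chr11.trna16-ValTAC (1.27). Values in brackets are R273H minus EV.

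Reads on rRNA, outside the tested features, averaged 0.265% of reads in treated against 0.137% in untreated R273H libraries, and both treated libraries were above both untreated ones. In EV the treated libraries had 0.576% and 0.343% and the untreated 0.391% and 0.223%, which overlap, and the mean difference over both lines had an exact permutation p of 0.111. Adapter reads averaged 0.00313% of reads in treated R273H libraries, from 13 and 14 reads against 11 and 5 untreated. In EV there were 3 and 142 adapter reads treated, 0.00128% and 0.0356%, against 30 and 8 untreated, so the libraries overlapped.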

How the results depend on the processing

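Each of the 6 called miRNAs kept its direction in every alternative that tested it. The count of 6 called miRNAs (of 325, 36 at an unadjusted p under 0.05) became 3 with upper quartile scaling, 1 with limma on log2(normalized reads + 1), 0 with limma at a pseudocount of 0.5 (29 at an unadjusted p under 0.05), 0 with EV libraries alone and 0 with R273H libraries alone (18 and 35 unadjusted), and 2 without EV etoposide 1 and R273H etoposide 2, which was added after seeing the data and kept miR-16-2-3p and miR-29b-3p. Leaving out 1 library gave 2 to 6 called miRNAs and 0 to 3 called tRNA features, with 2 miRNAs without EV untreated 1, EV untreated 2 or R273H etoposide 2. With the replicate number as a block there were 4 called miRNAs, 1 anticodon sum and 0 miRNAs differing between lines. DESeq2 called 6 miRNAs, 3 of them among the reported 6. The count of 0 tRNA features became 2 with library totals alone, 2 without a filter and 2 without those 2 etoposide libraries, and the count of 0 anticodon sums became 1 with library totals alone. The test of the difference between lines stayed at 0 in all 8 alternatives. The tRNA share difference was 2.003 to 3.58 points with 1 library left out.

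Some log2 differences changed sign, and not only those near 0. As reported, they were -0.10 for miR-24-3p, -0.04 for miR-27a-3p, -0.05 for miR-103a-3p and -0.29 for miR-181a-3p. Further from 0 were miR-222-5p (-0.38), miR-451a (-0.68) and miR-205-5p (-1.05). With library totals alone miR-24-3p was 0.28, miR-27a-3p 0.41, miR-103a-3p 0.32, miR-181a-3p 0.24 and miR-222-5p 0.086. With 1 library left out miR-24-3p ran from -0.30 to 0.0092 (above 0 without EV etoposide 1), miR-27a-3p from -0.098 to 0.012 and miR-451a from -1.43 to 0.088 (both above 0 without R273H untreated 2), miR-129-2-3p from -1.40 to 0.027 (above 0 without EV untreated 1) and miR-103a-3p from -0.29 to 0.053 (above 0 without EV etoposide 1, R273H untreated 1 or R273H etoposide 2). In EV libraries alone miR-103a-3p was 0.024, miR-451a 0.85, miR-205-5p 0.14 and miR-222-5p 0.22, and in R273H libraries alone miR-129-2-3p was 0.60. Without those 2 etoposide libraries miR-24-3p was 0.15 and miR-103a-3p 0.21. The cause was not tested. Of all values of named features, 1038 kept direction and side of the threshold, 62 lost it, 16 gained it and 19 changed direction. Most named features had not passed, and those that stayed so count as kept, so all 62 losses fell on the 6 called miRNAs. Of 24 alternatives, miR-16-2-3p passed in 20, miR-29b-3p in 16, miR-338-3p in 15, miR-30b-5p in 12 and miR-34a-5p in 10. For let-7a-2-3p it was 8 of 23. Depth limits miR-338-3p, miR-449a and let-7a-2-3p, which had under 10 reads in several libraries.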

Other observations

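Some mature arms come from only 1 of several hairpins that make the same guide strand, as miR-16-2-3p, let-7a-2-3p and miR-7-1-3p do. This group was put together after those values were seen, so it has no test. Of 14 such arms among the tested miRNAs, 11 had a log2 difference below 0, with a median of -0.50, against 132 of 325 tested miRNAs and a median of 0.10. Those values include miR-16-2-3p, let-7a-2-3p and miR-7-1-3p themselves, which prompted the group, so no conclusion is drawn from them. Over all 99 hairpins with both arms tested, 60 pairs had the same sign on both arms, and the less abundant arms had a median of 0.05, with 44 of 99 below 0.

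Among tRNA groups with several tested features, 9 of 10 glycine and 11 of 14 valine features had a log2 difference above 0, with medians of 0.23 and 0.28, while 2 of 9 serine features did, with a median of -0.20. None of these features passed the adjusted test in edgeR.

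Only the 290 of 325 tested miRNAs with a sequence could be grouped by seed, and miR-34c-5p and miR-30b-5p were among those without one. In the 10 seed groups with 3 or more such miRNAs, the medians ran from -0.60 to 0.33. The lowest was the miR-99/100 seed, with 0 of 3 members above 0, and the highest the miR-181 seed, with 4 of 4 above 0. miR-34a-5p (1.23) and miR-449a (1.84), which have one seed, fell short of 3 members there and are not among the 10. With library totals alone all 8 tested miR-181 features lay above 0, and the miR-99/100 and miR-125 list had 6 of 9 above 0.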
